A study of Mus musculus with 9 samples.

Results

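Trophoblast is the first lineage to separate from the rest of the mouse embryo, and it builds the fetal side of the placenta. The genes described here are 10 that mark or specify it, namely Tfap2a, Tfap2c, Eomes, Cdx2, Elf5, Hand1, Esx1, Plet1, Gata3 and Gata2. They were taken by gene name from a table of 48640 rows, and each name stood on a single row. Of the 10, 7 averaged 1 FPKM or more across the 9 libraries and were tested among 13808 rows, while Cdx2, Elf5 and Gata3 lay below that level and are described without a test. FPKM, fragments per kilobase of transcript, is a level corrected for transcript length and for the size of the library.

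The 9 libraries held polyadenylated RNA of 3 kinds of colonies. All came from mouse embryonic fibroblasts (MEFs) that received lentiviral vectors and were reprogrammed in ES cell medium with doxycycline at 1 ug/mL, and colonies were examined after 75 days of culture. YAP colonies were the non-pluripotent YAPmCherry+ colonies of cultures transduced with Yes-associated protein (YAP), and they stayed on a feeder layer with doxycycline at 1 ug/mL. YAP-culture iPSCs were induced pluripotent stem cells of the YAP-transduced cultures, with the genotype label Oct4:GFP+YAPmCherry+, although their titles describe a loss of YAP overexpression. Control iPSCs were Oct4:GFP+ colonies of MEFs transduced with an empty vector. Each group had 3 libraries, and whether these were separate cultures is not in the labels. The p-values then reflect the spread among these libraries alone, which may be technical. Strain, age and the number of clones or embryos are not given in the sources used here.

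In the embryo, the outer cells of the morula keep YAP in the nucleus, where it binds the DNA-binding factor Tead4 and switches on Cdx2 and Gata3 in the future trophectoderm. Eomes, Elf5 and Tfap2c then act with Cdx2 to keep trophoblast stem cells dividing under the influence of FGF4 from the epiblast. Hand1, Esx1 and the GATA factors serve in the differentiating placenta, whereas Tfap2a and Gata3 also act in surface ectoderm and Eomes and Hand1 in early mesoderm. None of the 10 is therefore a marker of trophoblast alone.

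The RefSeq promoter table (GRCm38.p6) held 8 of the 10 genes, in 11 windows that each cover the 250 bases before an annotated start. Below, 5 windows are printed 5' to 3'. Those of Tfap2a, Eomes and Plet1 were chosen because Tfap2a rose and Eomes and Plet1 fell in YAP colonies. Those of Elf5 and Gata2 were chosen because they carry the core motif of the TEAD factors that YAP binds. Tfap2a, Elf5 and Gata2 each have another window, not printed, that lacks this motif. Tfap2a lies at chr13:40733796-40734045 (minus strand), Eomes at chr9:118477939-118478188, Plet1 at chr9:50494275-50494524, Elf5 at chr2:103411848-103412097 and Gata2 at chr6:88198414-88198663 (all plus strand). Capitals mark the TEAD core GGAATG, the AP-2 motif GCCNNNGGC, the GATA motif AGATAA and the TATA box TATANA. All were searched on both strands, and no match overlaps another motif in these windows.
Tfap2a: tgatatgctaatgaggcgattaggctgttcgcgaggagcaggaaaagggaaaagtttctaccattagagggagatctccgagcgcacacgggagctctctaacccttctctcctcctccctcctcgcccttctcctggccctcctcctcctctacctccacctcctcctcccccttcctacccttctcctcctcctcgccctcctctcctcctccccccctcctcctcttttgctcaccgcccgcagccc
Eomes: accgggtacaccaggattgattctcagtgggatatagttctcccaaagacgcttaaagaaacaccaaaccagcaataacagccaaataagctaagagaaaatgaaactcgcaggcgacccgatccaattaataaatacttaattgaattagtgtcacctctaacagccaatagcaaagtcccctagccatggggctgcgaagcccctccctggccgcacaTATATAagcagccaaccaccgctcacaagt
Plet1: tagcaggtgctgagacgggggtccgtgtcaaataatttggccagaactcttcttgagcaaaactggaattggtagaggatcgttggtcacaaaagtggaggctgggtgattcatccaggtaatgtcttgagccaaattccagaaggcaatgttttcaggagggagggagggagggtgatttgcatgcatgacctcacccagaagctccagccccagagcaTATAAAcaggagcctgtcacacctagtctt
Elf5: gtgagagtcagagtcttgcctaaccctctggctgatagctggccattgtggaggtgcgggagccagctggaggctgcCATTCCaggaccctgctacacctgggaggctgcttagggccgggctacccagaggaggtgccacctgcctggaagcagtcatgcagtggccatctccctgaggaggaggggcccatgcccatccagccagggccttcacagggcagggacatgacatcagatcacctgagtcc
Gata2: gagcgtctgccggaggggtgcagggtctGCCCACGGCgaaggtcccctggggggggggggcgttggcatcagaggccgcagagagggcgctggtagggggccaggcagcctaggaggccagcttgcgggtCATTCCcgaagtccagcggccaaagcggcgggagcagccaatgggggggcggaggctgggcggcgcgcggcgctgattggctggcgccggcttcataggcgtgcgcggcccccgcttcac

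The TEAD core stood in 2 of the 11 windows of these genes, a window of Elf5 and a window of Gata2. It stood in 12.6% of all 32851 windows of the table. In both it reads CATTCC, the other strand of GGAATG. The AP-2 motif stood in 3 of the 11 windows, of Cdx2, Gata2 and Gata3, and in 13.7% of all windows. The GATA motif was in none of the 11 and in 9.99% of all windows. A TATA box began 30 bases before the start of both Eomes and Plet1, and TATANA occurred in 22.6% of all windows. The TATA motif was added after the sequences had been seen, and a match is a description of letters and not a bound site.

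Library depth was estimated from the smallest steps between low FPKM values, and it lay between 6430000 and 19600000 fragments, with YAP-culture iPSC replicate 2 the shallowest. Between 82.1% and 89.5% of the low values used came within 0.1 of a whole fragment, so the fragment numbers given here are approximate. Pseudogene rows held 37.5% to 50.8% of the summed FPKM of a library. YAP-culture iPSC replicate 3 stood apart from its group in that the comparison of the iPSC groups called 1048 rows without it and 192 with it, and control iPSC replicate 3 had the largest share of ribosomal RNA rows, 2.92% of its FPKM. The pluripotency marker list summed to 127 to 169 FPKM in YAP colonies, 5570 to 6460 FPKM in YAP-culture iPSCs and 4640 to 5760 FPKM in control iPSCs. Fibroblast and feeder markers summed to 730 to 1050 FPKM in YAP colonies, against 79.7 to 112 FPKM in YAP-culture iPSCs and 97.6 to 126 FPKM in control iPSCs, and all 5 tested markers of that list of 12 rose in the colonies. The intermediate filament gene Vim made up most of that sum, and the collagen gene Col1a1 was at 1.92 to 3.33 FPKM in YAP colonies. Col1a1, Col3a1 and Dcn averaged 1 FPKM or more across the libraries only through the colonies, so that a higher colony level was bound to appear. The untested markers of the list went both ways. Col1a2 and Postn were higher in the colonies than in both iPSC groups without overlap, and Pdgfrb and Twist1 were lower. Pdgfrb averaged 0.315 FPKM in YAP colonies, 0.905 FPKM in YAP-culture iPSCs and 0.931 FPKM in control iPSCs. Pdgfra, Lum and Prrx1 overlapped with YAP-culture iPSCs. Xist, the RNA of the inactive X chromosome, was at 147 to 203 FPKM in YAP colonies and at most 1.66 FPKM in the iPSC libraries, while the Y-linked gene Ddx3y was at most 0.0691 FPKM in YAP colonies and 7.96 to 20.6 FPKM in iPSCs. A difference of sex or embryo therefore runs along with the difference of colony type, and the 2 cannot be told apart. In bulk RNA, fewer cells of a type and less RNA per cell cannot be told apart either.

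A gene is called here when its two-sided p from limma, adjusted by Benjamini and Hochberg over all 13808 tested rows, is below 0.05 and its change on the log2(FPKM + 1) scale is 1 or more in either direction. That scale understates the change of low genes. "Rose" and "fell" mean called.

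In YAP colonies, the non-pluripotent state in the presence of the YAP transgene, 1 of the 10 lineage genes rose and most of the others were lower than in iPSCs. Tfap2a rose 22.4-fold over YAP-culture iPSCs and 40.5-fold over control iPSCs. Tfap2c, Eomes and Plet1 fell against both iPSC groups, and Hand1 fell against control iPSCs. Cdx2 was listed at 0 in all 3 colony libraries and Elf5 was at the level of a single fragment. The summed FPKM of the 10 genes was 34.8, 26.5 and 29.1 in YAP colonies, 40.6, 34.8 and 49.9 in YAP-culture iPSCs, and 93.0, 70.3 and 78.4 in control iPSCs. The colonies and the control iPSCs did not overlap in that sum, and the colonies and YAP-culture iPSCs met at 34.8. Tfap2c carried most of the separation from control iPSCs, at 55.9, 44.9 and 50.0 FPKM there and 3.97, 1.89 and 3.13 FPKM in YAP colonies. The sum therefore says little about the other members.

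**Figure D1:**
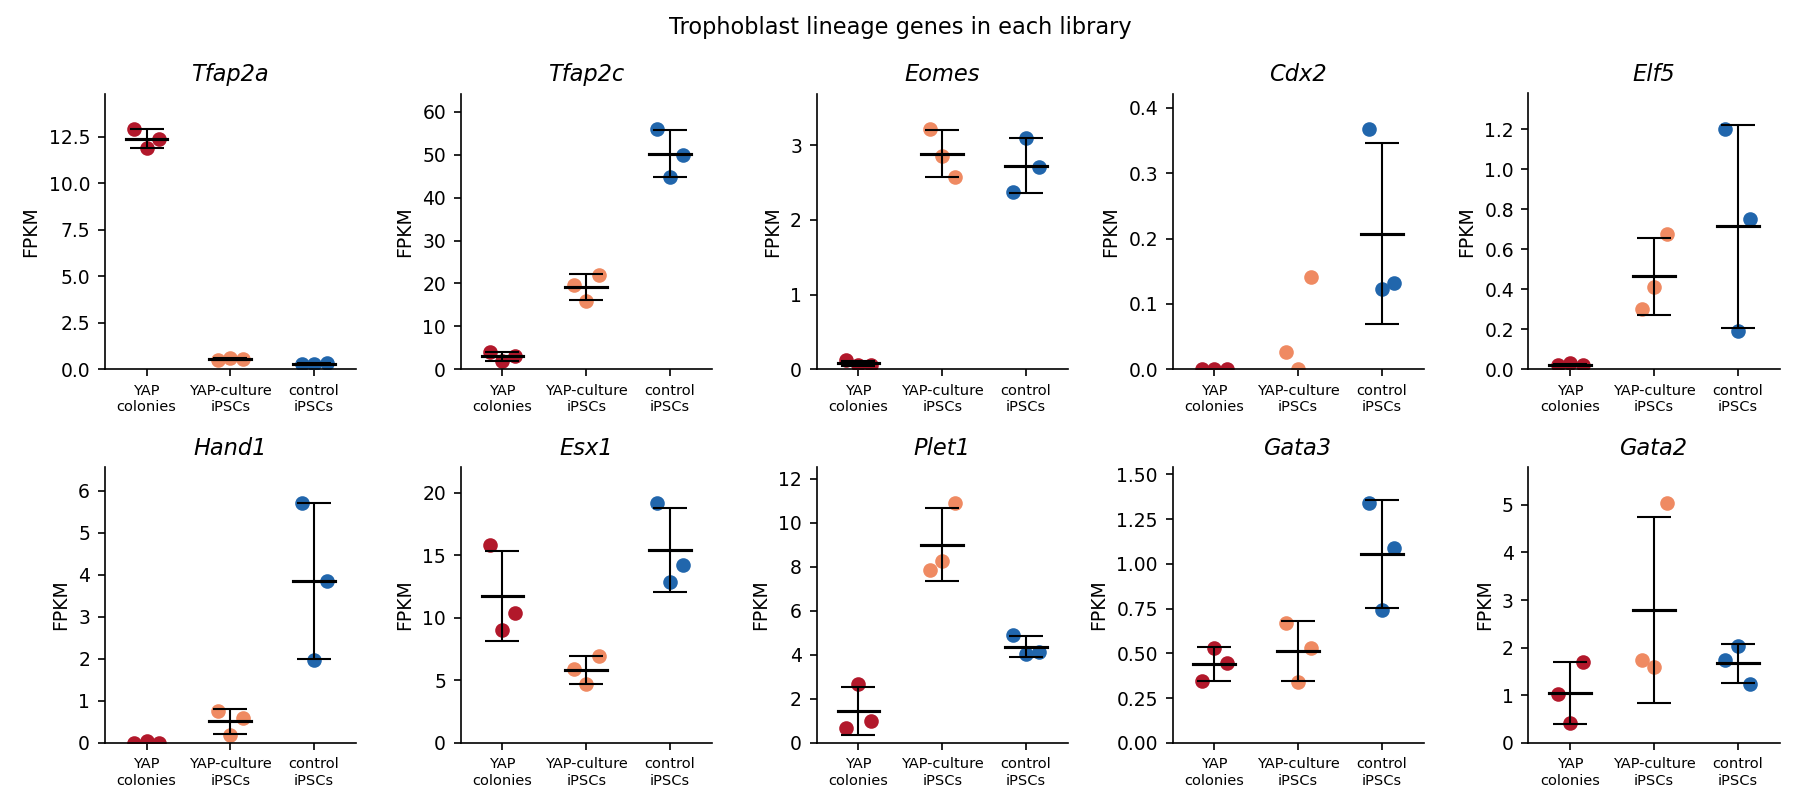
FPKM of each of the 10 genes (vertical axes, each starting at 0) in every library of YAP colonies, YAP-culture iPSCs and control iPSCs. Points are libraries, and bars are the mean with its SD (n = 3), left out where a library is listed at 0. Tfap2a is high in the 3 colony libraries (11.9 to 12.9 FPKM), and Tfap2c, Eomes, Elf5, Hand1 and Plet1 are lowest there.

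Against YAP-culture iPSCs, 1 of the 7 tested members rose, 3 fell and 3 were not called. Of all tested rows, 30.3% were called in this comparison, 15.8% higher and 14.5% lower. The median log2 fold change was -0.83 over the tested members and 0.02 over all tested rows. Among all 10 members, the values of the groups did not overlap for 2 that were higher and 5 that were lower in YAP colonies. Over all 26982 rows above 0 in some library, such separation occurred in 22.5% and 23.7%. The rise of 1 in 7 is thus close to its background share, and the falls are above theirs. No conclusion about the list is drawn from these shares. Tfap2a entered the tested set only through the colonies and Eomes only through the iPSCs, and the members were chosen with earlier results known. Against control iPSCs, 1 tested member rose, 4 fell and 2 were not called, where 31.8% of all tested rows were called, 14.9% higher and 17% lower. There the median was -1.22 over the tested members and -0.07 over all tested rows, and 1 member was higher and 7 were lower without overlap, against 24.7% and 29.6% of the rows above 0. Both comparisons use the same colony libraries.

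**Figure D2:**
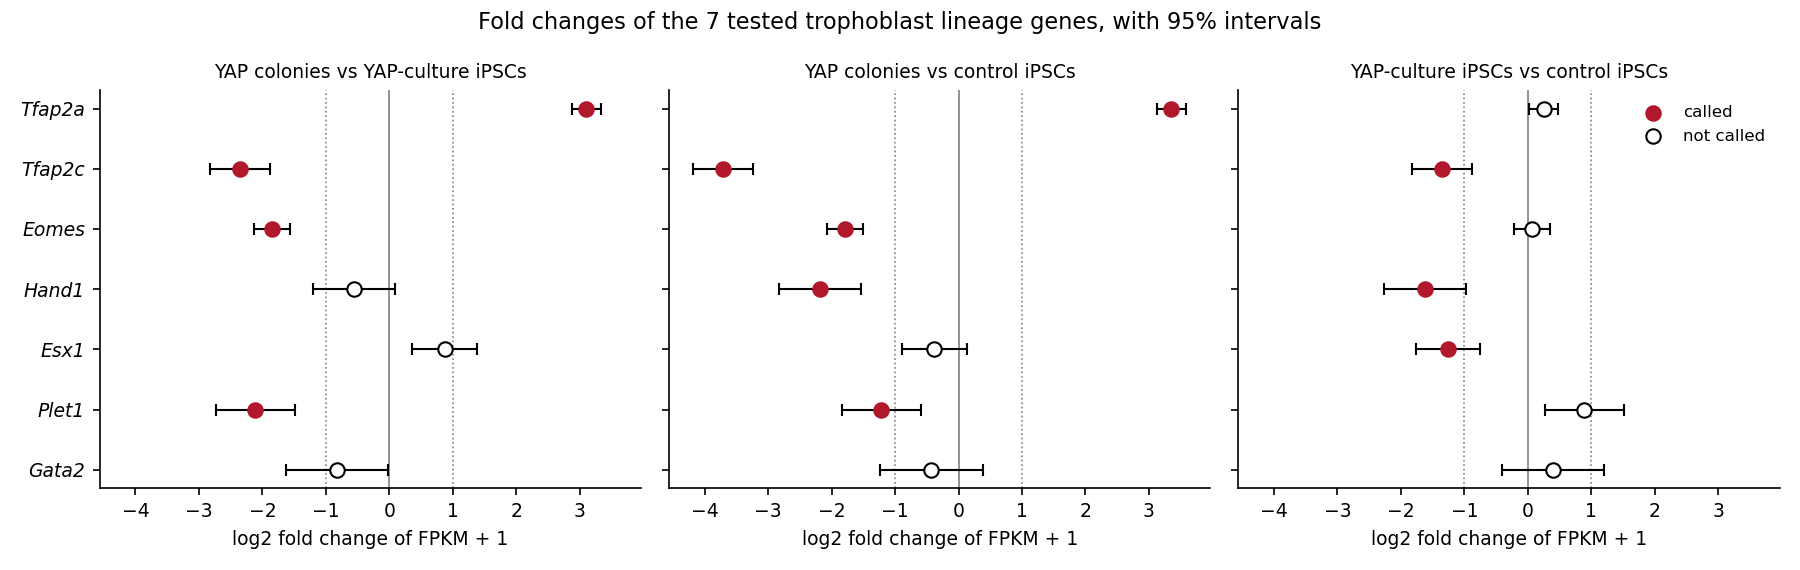
Log2 fold change of FPKM + 1 (horizontal axes) of the 7 tested lineage genes in the 3 comparisons, with 95% intervals, filled where called, and dotted lines at a change of 1 in either direction. Tfap2a stands at 3.11 and 3.36 in the colony comparisons, and Tfap2c at -2.35, -3.71 and -1.35 across the 3 panels.

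The AP-2 factors Tfap2a and Tfap2c moved in opposite directions. Tfap2a (chr13:40715675-40733823, minus strand, mm10) encodes the AP-2 alpha transcription factor of surface ectoderm, neural crest and trophoblast. It was at 12.9, 11.9 and 12.4 FPKM in YAP colonies, 0.483, 0.604 and 0.574 FPKM in YAP-culture iPSCs, and 0.285, 0.304 and 0.329 FPKM in control iPSCs. The 3 colony libraries lay within a narrow range above every iPSC library, resting on about 632 to 649 fragments each, against 14 to 28 fragments in YAP-culture iPSCs and 19 to 20 in control iPSCs. On the log2 scale the rise was 3.11 (SE 0.10, adjusted p = 3.83e-08) over YAP-culture iPSCs and 3.36 (SE 0.10, adjusted p = 2.46e-08) over control iPSCs. Tfap2a passed the filter on low values only through the colonies. Its level in YAP-culture iPSCs was above control iPSCs without overlap, yet it was not called (log2 fold change 0.25, adjusted p = 0.138).

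Tfap2c (chr2:172549593-172558622, plus strand) encodes AP-2 gamma, which trophoblast stem cells and primordial germ cells need. It was at 3.97, 1.89 and 3.13 FPKM in YAP colonies, 19.7, 15.8 and 22 FPKM in YAP-culture iPSCs, and 55.9, 44.9 and 50.0 FPKM in control iPSCs, the most abundant of the 10 genes in both iPSC groups. The 3 groups did not overlap, and the colonies were lowest and the control iPSCs highest. The fall in the colonies was -2.35 (SE 0.21, adjusted p = 1.44e-05) against YAP-culture iPSCs and -3.71 (SE 0.21, adjusted p = 8.19e-07) against control iPSCs on the log2 scale. In linear terms the mean was 6.38-fold and 16.8-fold lower. Tfap2a was above Tfap2c in every colony library and below it in every iPSC library.

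The other AP-2 genes gave little signal. Tfap2b was listed at 0 in every library except control iPSC replicate 2 (0.00899 FPKM), and Tfap2d was listed at 0 in all 9. Tfap2e reached at most 0.0672 FPKM in YAP colonies and 0.119 FPKM in the iPSC libraries. The primordial germ cell list, whose tested members (7 of 9) all fell in YAP colonies, summed to at most 16.4 FPKM in YAP colonies, 82.0 to 93.2 FPKM in YAP-culture iPSCs and 112 to 115 FPKM in control iPSCs. Kit, at 15.8, 9.57 and 9.75 FPKM, carried most of the sum in YAP colonies. The other tested genes of that list passed the filter only through the iPSCs, so that a lower colony level was bound to appear. The part of the germ cell list in the level of Tfap2c was not tested. Keratinocyte and surface ectoderm markers, the other setting in which Tfap2a is known, summed to 138 to 159 FPKM in YAP colonies, against 32.1 to 66.0 FPKM in YAP-culture iPSCs and 62.0 to 71.1 FPKM in control iPSCs. Of its 10 genes 5 were tested, and 2 rose and 2 fell in the colonies against YAP-culture iPSCs, and 2 rose and 3 fell against control iPSCs. The membrane protein gene Perp, at 66.2 to 83.2 FPKM in YAP colonies, and the keratinocyte gene Krtdap, at 88.9, 58.8 and 60.6 FPKM there, carried most of the sum and rose in both comparisons, Krtdap by 13.4-fold and 16.7-fold. The stratifin gene Sfn and the keratin gene Krt17 fell in both, and Grhl3, an epithelial transcription factor gene, fell against control iPSCs. Krt17 passed the filter only through the iPSCs. The defining keratins Krt5 and Krt14 and the basal factor Trp63 were at most 0.217 FPKM in YAP colonies. Of the neural crest list, the sum was 10.1 to 16.0 FPKM in YAP colonies, 8.82 to 12.3 FPKM in YAP-culture iPSCs and 8.28 to 9.94 FPKM in control iPSCs. Its 4 tested genes of 10 went both ways: Ets1 rose and Mitf and Foxd3 fell in both colony comparisons, and Ngfr rose against control iPSCs. Ets1 passed the filter only through the colonies, and Mitf and Foxd3 only through the iPSCs, so that these differences were bound to appear. Sox9, below the filter, averaged 1.83 FPKM in YAP colonies, 0.0654 FPKM in YAP-culture iPSCs and 0.073 FPKM in control iPSCs.

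Of the 3 factors that define trophoblast stem cells in the mouse, none was high in any group. Eomes (chr9:118478212-118486132, plus strand), a T-box factor required for the trophectoderm to grow out, was at 0.122, 0.0531 and 0.0568 FPKM in YAP colonies, 3.21, 2.86 and 2.58 FPKM in YAP-culture iPSCs, and 2.37, 3.10 and 2.71 FPKM in control iPSCs. The colonies, at about 3 to 6 fragments a library, lay below every iPSC library, and the iPSC groups overlapped. Eomes fell in the colonies, with a log2 fold change of -1.85 against YAP-culture iPSCs (SE 0.12, adjusted p = 2.86e-06) and -1.79 against control iPSCs (SE 0.12, adjusted p = 3.3e-06). It passed the filter on low values only through the iPSCs, so that a difference was bound to appear. Eomes also marks early mesoderm, and the summed level of that marker list was at most 1.70 FPKM in YAP colonies, 2.61 FPKM in YAP-culture iPSCs and 2.81 FPKM in control iPSCs.

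Cdx2 (chr5:147300805-147307270, minus strand), the caudal-type homeobox gene that specifies trophectoderm downstream of YAP and Tead4, was listed at 0 in the 3 colony libraries. It was at 0.0271, 0 and 0.141 FPKM in YAP-culture iPSCs and 0.367, 0.123 and 0.132 FPKM in control iPSCs, where control libraries held about 5 to 16 fragments. The gene was barely detected anywhere at this depth and was not tested. Elf5 (chr2:103411688-103450989, plus strand) encodes an ETS factor that reinforces trophoblast stem cell identity. It had 0.0213, 0.0293 and 0.0208 FPKM in YAP colonies, about 1 fragment a library. YAP-culture iPSCs had 0.302, 0.413 and 0.678 FPKM of Elf5 and control iPSCs 1.20, 0.190 and 0.754 FPKM, so the iPSC groups overlapped and every colony library was below them. With no filter on low values, the log2 differences between YAP colonies and control iPSCs were -0.27 for Cdx2 (adjusted p = 0.0306) and -0.70 for Elf5 (adjusted p = 0.0265), short of the fold threshold.

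The GATA factors were low in all groups. Gata3 (chr2:9857078-9890034, minus strand), which acts beside Cdx2 in the trophectoderm, was at 0.346, 0.532 and 0.443 FPKM in YAP colonies, 0.668, 0.339 and 0.531 FPKM in YAP-culture iPSCs, and 1.34, 0.740 and 1.09 FPKM in control iPSCs. The colonies and YAP-culture iPSCs overlapped, and every control library was above both. Without a filter the log2 difference of Gata3 between YAP colonies and control iPSCs was -0.51 (adjusted p = 0.0156). Gata2 (chr6:88193891-88207032, plus strand), a regulator of placental hormone genes in trophoblast giant cells and of blood progenitors, was at 1.02, 0.405 and 1.70 FPKM in YAP colonies, 1.73, 1.59 and 5.04 FPKM in YAP-culture iPSCs, and 1.75, 2.04 and 1.23 FPKM in control iPSCs. All 3 groups overlapped, and the high value came from YAP-culture iPSC replicate 3. Gata2 was not called against YAP-culture iPSCs (log2 fold change -0.83, SE 0.35, adjusted p = 0.0728) or control iPSCs (-0.43, adjusted p = 0.322). It passed the call against YAP-culture iPSCs when YAP colony replicate 3 (-1.05, adjusted p = 0.0497) or YAP-culture iPSC replicate 2 (-1.04, adjusted p = 0.0469) was left out.

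Plet1 (chr9:50494525-50505482, plus strand), a surface protein gene of trophoblast stem cells and early ectoplacental cone, was at 0.652, 2.67 and 0.976 FPKM in YAP colonies, 7.85, 8.28 and 10.9 FPKM in YAP-culture iPSCs, and 4.90, 4.02 and 4.14 FPKM in control iPSCs. The 3 groups did not overlap, and YAP-culture iPSCs were highest. Plet1 fell in the colonies, with a log2 fold change of -2.12 against YAP-culture iPSCs (SE 0.27, adjusted p = 0.000167) and -1.22 against control iPSCs (SE 0.27, adjusted p = 0.00416). The fall against control iPSCs lost its call without YAP colony replicate 1, at -0.99.

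Hand1 (chr11:57828705-57832818, minus strand), a basic helix-loop-helix factor required for trophoblast giant cells, was listed at 0, 0.0368 and 0 FPKM in YAP colonies, 0.765, 0.184 and 0.596 FPKM in YAP-culture iPSCs, and 5.71, 1.98 and 3.86 FPKM in control iPSCs. The groups did not overlap. The colonies held at most about 1 fragment, and the filter was passed only through the control iPSCs, which held 70 to 213. Hand1 fell in the colonies against control iPSCs (log2 fold change -2.19, SE 0.28, adjusted p = 0.000167). Against YAP-culture iPSCs it was not called (-0.56, adjusted p = 0.118), although it was called with a pseudocount of 0.1 (-2.32, adjusted p = 0.00458).

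Esx1, an X-linked homeobox gene of the placental labyrinth (chrX:137115397-137122083, minus strand), had the highest mean in YAP colonies after Tfap2a. It was at 15.8, 9.02 and 10.4 FPKM in YAP colonies, 5.91, 4.71 and 6.93 FPKM in YAP-culture iPSCs, and 19.2, 12.9 and 14.2 FPKM in control iPSCs. The colonies were above every YAP-culture library and overlapped with control iPSCs. The difference from YAP-culture iPSCs was 0.87 on the log2 scale (SE 0.23, adjusted p = 0.00877), under the fold threshold, and it reached 1.03 without YAP colony replicate 2. Against control iPSCs the log2 fold change was -0.38 (adjusted p = 0.169). Esx1 lies on the chromosome whose Xist RNA separates the colonies from the iPSCs, and the part of that difference in its level was not tested.

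YAP-culture iPSCs differed from control iPSCs in 3 of the 7 tested members, all lower. Their log2 fold changes were -1.35 for Tfap2c (SE 0.21, adjusted p = 0.0151), -1.62 for Hand1 (SE 0.28, adjusted p = 0.0246) and -1.26 for Esx1 (SE 0.23, adjusted p = 0.0258), and the libraries of the 2 groups did not overlap for any of them. None of the tested members rose in limma, and 2 were higher at an unadjusted p under 0.05. Over all tested rows 1.39% were called, 0.507% higher and 0.884% lower, and 70 rows rose and 122 fell. With quantile normalization, 141 rose and 132 fell. The median was 0.06 over the tested members and -0.03 over all tested rows. Among all 10 members, 2 were higher and 4 lower without overlap, against 11.5% and 9.81% of the rows above 0. Plet1 was higher in YAP-culture iPSCs (log2 fold change 0.89, adjusted p = 0.0893), and Gata2 and Eomes overlapped, at 0.40 (adjusted p = 0.448) and 0.06 (adjusted p = 0.758).

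The 3 calls between the iPSC groups depended on single libraries. All 3 were lost, with adjusted p between 0.051 and 0.108, when YAP-culture iPSC replicate 1, YAP-culture iPSC replicate 2, control iPSC replicate 1 or control iPSC replicate 3 was left out. Hand1 was lost as well without YAP colony replicate 2 (adjusted p = 0.0541) or replicate 3 (0.0505), which enter through the shared estimate of the spread, and Esx1 without YAP colony replicate 3 (0.0551). The fold changes themselves ranged only from -1.23 to -1.38 for Tfap2c, -1.35 to -1.74 for Hand1 and -1.10 to -1.31 for Esx1 among those fits. Without YAP-culture iPSC replicate 3, all 3 stayed called, at -1.46 for Tfap2c, -1.67 for Hand1 and -1.37 for Esx1, and without that library and control iPSC replicate 3 together all 3 stayed called as well.

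Several members have close relatives, and a list of 18 paralogs was compared with them, of which 8 were tested. In YAP colonies 2 of the 8 rose and 3 fell against YAP-culture iPSCs, and 2 rose and 4 fell against control iPSCs. Of all tested rows, 15.8% rose and 14.5% fell in the first comparison, and 14.9% rose and 17% fell in the second. With only 8 genes tested, no conclusion about the list is drawn from these counts. None of the 8 was called between the iPSC groups, where 1 was lower and none higher at an unadjusted p under 0.05. Tbx21, the T-box gene best known from T helper cells, was at 3.64, 7.17 and 7.35 FPKM in YAP colonies, against at most 0.220 FPKM in YAP-culture iPSCs and 0.166 FPKM in control iPSCs. Tbx21 rose by a log2 fold change of 2.59 (adjusted p = 1.32e-05) and 2.61 (adjusted p = 1.17e-05) over YAP-culture and control iPSCs. Ehf, an epithelial ETS gene that lies beside Elf5 on chromosome 2, was at 7.27, 17.3 and 12.2 FPKM in YAP colonies, 0.096, 0.853 and 0.207 FPKM in YAP-culture iPSCs, and 0.298, 0.180 and 0.215 FPKM in control iPSCs. It rose by 3.23 (adjusted p = 1.98e-05) and 3.36 (adjusted p = 1.45e-05). Tbx21 and Ehf passed the filter on low values only through the colonies, so that a difference was bound to appear. Cdx1 was listed at 0 in the colonies, at 3.28, 3.33 and 7.27 FPKM in YAP-culture iPSCs and 3.02, 4.13 and 2.63 FPKM in control iPSCs, well above Cdx2 in every iPSC library. Gata1, an erythroid factor on the X chromosome, reached 0.0381 FPKM in the colonies, 1.73 to 2.26 FPKM in YAP-culture iPSCs and 2.05 to 2.79 FPKM in control iPSCs, and fell in both comparisons. Cdx1 and Gata1 passed the filter only through the iPSCs.

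**Figure D3:**
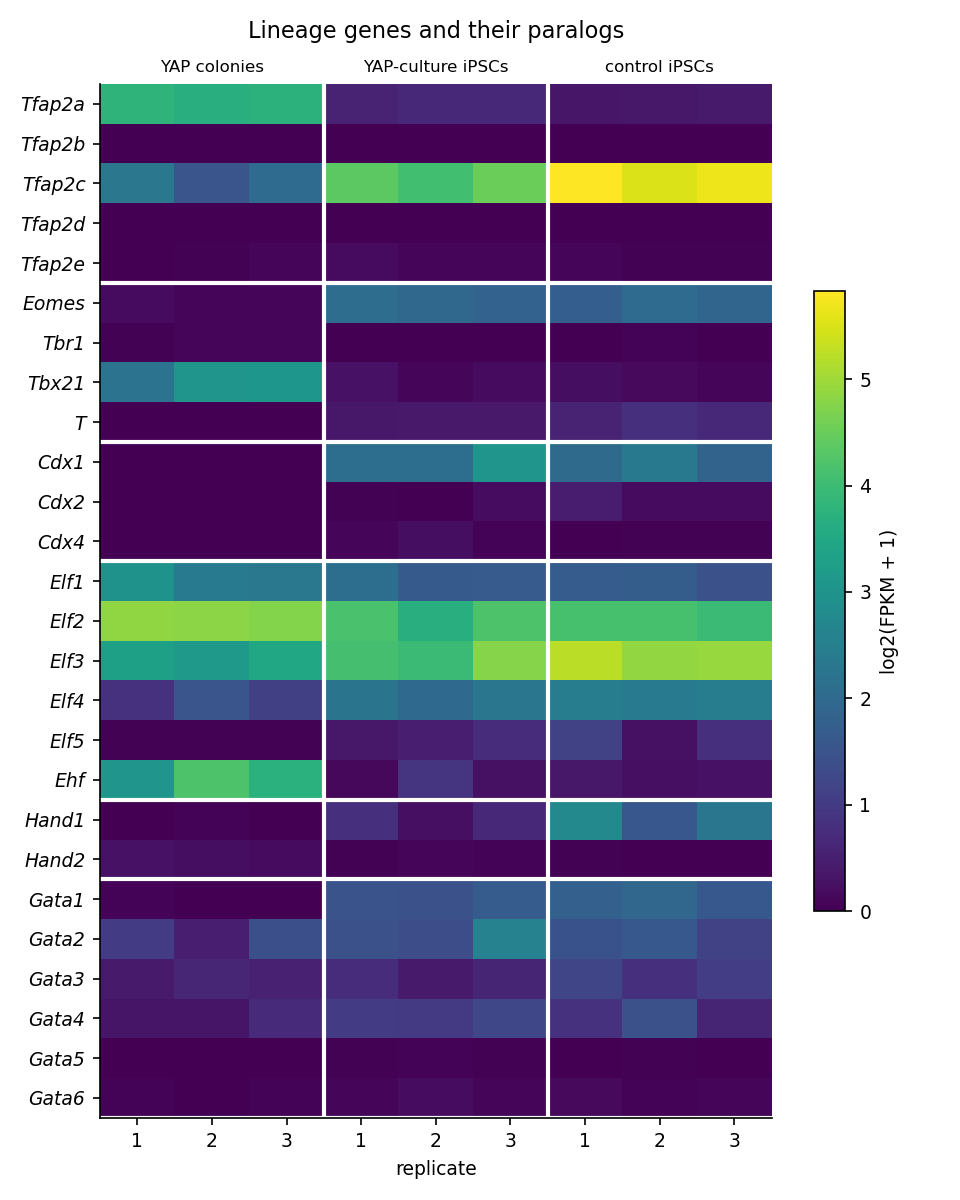
Levels of the lineage genes and their paralogs as log2(FPKM + 1) (colour), with 1 row a gene, grouped by family, and 1 column a library. Within families, Tfap2a, Tbx21 and Ehf are brighter in YAP colonies, where Tfap2c, Eomes, Cdx1 and Gata1 are darker than in the iPSC groups.

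RNA of Yap1 and of its TEAD partners was present in the colonies. Of 10 YAP, TAZ, TEAD and VGLL genes, 8 were tested, and 4 rose and none fell against YAP-culture iPSCs, where all 8 were higher at an unadjusted p under 0.05. Against control iPSCs 3 rose and none fell (7 higher and none lower at an unadjusted p under 0.05), and 5 rose without control iPSC replicate 1 or with protein-coding rows rescaled to equal totals. In the main fit the rises are 50.0% and 37.5% of the 8, where 15.8% and 14.9% of all tested rows rose. The share of all tested rows at an unadjusted p under 0.05 was not taken, so the counts at that level have no background beside them. Yap1 was at 60.9, 59.1 and 63.1 FPKM in YAP colonies, 39.1, 32.5 and 36.7 FPKM in YAP-culture iPSCs, and 45.8, 41.3 and 40.4 FPKM in control iPSCs, a difference of 0.74 (adjusted p = 0.000211) and 0.51 (adjusted p = 0.00192) on the log2 scale that did not reach the fold threshold. Whether the YAP transgene adds to the Yap1 row is not given in the sources used here. Wwtr1, which encodes the YAP relative TAZ, was at 25.3 to 28.2 FPKM in YAP colonies, against 8.63 to 9.17 FPKM in YAP-culture iPSCs and 4.97 to 5.60 FPKM in control iPSCs, and rose by 1.49 (adjusted p = 1.29e-06) and 2.13 (adjusted p = 1.44e-07). The DNA-binding partner of YAP in trophectoderm, Tead4, averaged 17.4 ± 3.4 FPKM in YAP colonies, 11.7 ± 2.06 in YAP-culture iPSCs and 9.33 ± 1.41 in control iPSCs (SD, n = 3 each). It was higher in the colonies, by 0.53 (adjusted p = 0.0305) and 0.83 (adjusted p = 0.00362) on the log2 scale. Tead4 was not called because both changes were under the fold threshold, and the colonies overlapped with YAP-culture iPSCs. Tead1 averaged 42.8 ± 1.04 FPKM in YAP colonies, 28.5 ± 3.01 in YAP-culture iPSCs and 21.4 ± 1.84 in control iPSCs (SD, n = 3 each). Tead2 averaged 63.6 ± 8.02 FPKM in YAP colonies, 35.6 ± 7.44 in YAP-culture iPSCs and 56.3 ± 4.02 in control iPSCs (SD, n = 3 each), and neither was called. Tead1 was higher by 0.57 (adjusted p = 0.00149) and 0.97 (adjusted p = 5.82e-05), under the fold threshold. Tead2 was higher by 0.83 over YAP-culture iPSCs (adjusted p = 0.00166), also under it, and by 0.17 over control iPSCs (adjusted p = 0.376). Tead3 averaged 6.11 ± 0.671 FPKM in YAP colonies, 1.45 ± 0.571 in YAP-culture iPSCs and 2.71 ± 0.573 in control iPSCs (SD, n = 3 each). It rose by 1.56 on the log2 scale over YAP-culture iPSCs and was not called against control iPSCs, at 0.94 (adjusted p = 0.00202). The TEAD cofactor genes Vgll3 and Vgll4 rose 9.89-fold and 11.7-fold over YAP-culture iPSCs. Whether their products act with or against YAP here was not tested. None of the 8 was called between the iPSC groups by limma, although 3 were higher and 3 lower at an unadjusted p under 0.05.

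Other genes of trophectoderm and trophoblast stem cells moved in both directions. Of 26 such genes, 20 were tested, and 4 rose and 8 fell in YAP colonies against YAP-culture iPSCs, while 4 rose and 9 fell against control iPSCs. The 4 that rose in each were Dab2, Ddah1, Ly6a and Nr2f2. They are 20.0% of the 20 tested, near the 15.8% and 14.9% of all tested rows that rose. The shares that fell are above the 14.5% and 17% of all tested rows that fell. Ly6a, which encodes the surface antigen Sca-1, rose 59.4-fold over YAP-culture iPSCs (32.5 ± 11.9 against 0.547 ± 0.323 FPKM, SD, n = 3 each). Nr2f2, an orphan nuclear receptor also common in mesenchyme, was at 6.65 to 8.74 FPKM in YAP colonies and at most 0.199 FPKM in iPSC libraries. Ly6a and Nr2f2 also passed the filter only through the colonies. On the other side, the simple-epithelial keratin Krt18, a classic trophectoderm product, was at 0.0538, 0.196 and 0 FPKM in YAP colonies, 6.20, 6.19 and 10.5 FPKM in YAP-culture iPSCs and 27.0, 13.1 and 17.7 FPKM in control iPSCs. Its partner Krt8 was at 0.263, 1.05 and 0.827 FPKM in YAP colonies, 1.17, 0.919 and 2.69 FPKM in YAP-culture iPSCs, and 4.12, 2.17 and 3.18 FPKM in control iPSCs, and fell only against the control iPSCs (-1.28, adjusted p = 0.00513). Whether the changes of Krt8 in the 2 comparisons differ was not tested. Krt7 was at most 0.0378 FPKM in YAP colonies and fell against YAP-culture iPSCs (log2 fold change -1.40) and control iPSCs (-2.46). Sox15, which lists 0 in all 3 colony libraries, fell in both comparisons (-4.52 and -5.43), as did Aqp3, a water and glycerol channel gene (-4.20 and -3.65). Bmp4, a growth factor gene, fell against YAP-culture iPSCs (-2.54, adjusted p = 9.78e-06) and control iPSCs (-3.63, adjusted p = 1.05e-06). Except for Aqp3, the genes of this list that fell averaged below 1 FPKM in the colonies. They passed the filter only through the iPSCs, so that a lower colony level was bound to appear.

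Most genes of differentiated trophoblast lay below the filter. Of 30, 6 reached it, and 4 of these fell in YAP colonies against each iPSC group, with none higher at an unadjusted p under 0.05. The 4 are 66.7% of the 6, where 14.5% and 17% of all tested rows fell. Most of the 4, Phlda2 and Ovol2 among them, passed the filter only through the iPSCs, so that a lower colony level was bound to appear. Tpbpa, the marker of spongiotrophoblast, and Prl3d1, a giant cell hormone gene, were listed at 0 in all 9 libraries. Gcm1, which directs labyrinth branching, was listed at 0 in the colonies and reached 0.435 FPKM in YAP-culture iPSCs and 0.505 FPKM in control iPSCs. Ascl2, an imprinted gene of the ectoplacental cone, was listed at 0, 0.0420 and 0 FPKM in YAP colonies, 0.875, 0.632 and 1.52 FPKM in YAP-culture iPSCs and 2.22, 1.47 and 1.54 FPKM in control iPSCs. Phlda2, an imprinted brake on placental growth, was listed at 0 in the colonies and fell in both comparisons (log2 fold changes -3.31 and -4.45).

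Fgf4, whose product reaches trophoblast stem cells from the epiblast, fell in YAP colonies. Of 15 genes of that signal 12 were tested. In the colonies 2 rose and 3 fell against YAP-culture iPSCs, and 1 rose and 3 fell against control iPSCs. The 2 that rose are 16.7% of the 12, near the 15.8% of all tested rows, and the 1 is 8.33%, below the 14.9% of all rows, while 3 of the 12 fell in each comparison, where 14.5% and 17% of all rows did. Fgf4 was at 3.23, 6.30 and 6.30 FPKM in YAP colonies, 57.6, 59.8 and 58.5 FPKM in YAP-culture iPSCs, and 61.8, 60.4 and 55.0 FPKM in control iPSCs. Its log2 fold change was -3.29 (adjusted p = 1.42e-06) against YAP-culture iPSCs and -3.30 (adjusted p = 1.34e-06) against control iPSCs. The pluripotency marker list, which also holds Fgf4, fell as a whole in the colonies, with all 10 of its genes lower against each iPSC group. Of that list, Zfp42, Esrrb, Tdgf1, Dppa3, Klf2 and Utf1 passed the filter only through the iPSCs. Fgfr2, the receptor through which trophoblast stem cells read FGF4, was listed at 0 in all 9 libraries, which in this unit can be a failed estimate. Fgfr1 rose 5.83-fold over YAP-culture iPSCs and 3.72-fold over control iPSCs. Fgfr3 rose against YAP-culture iPSCs by 1.26, and Spry2, a feedback inhibitor of FGF signalling, fell against both (-1.85 and -1.89).

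**Figure D4:**
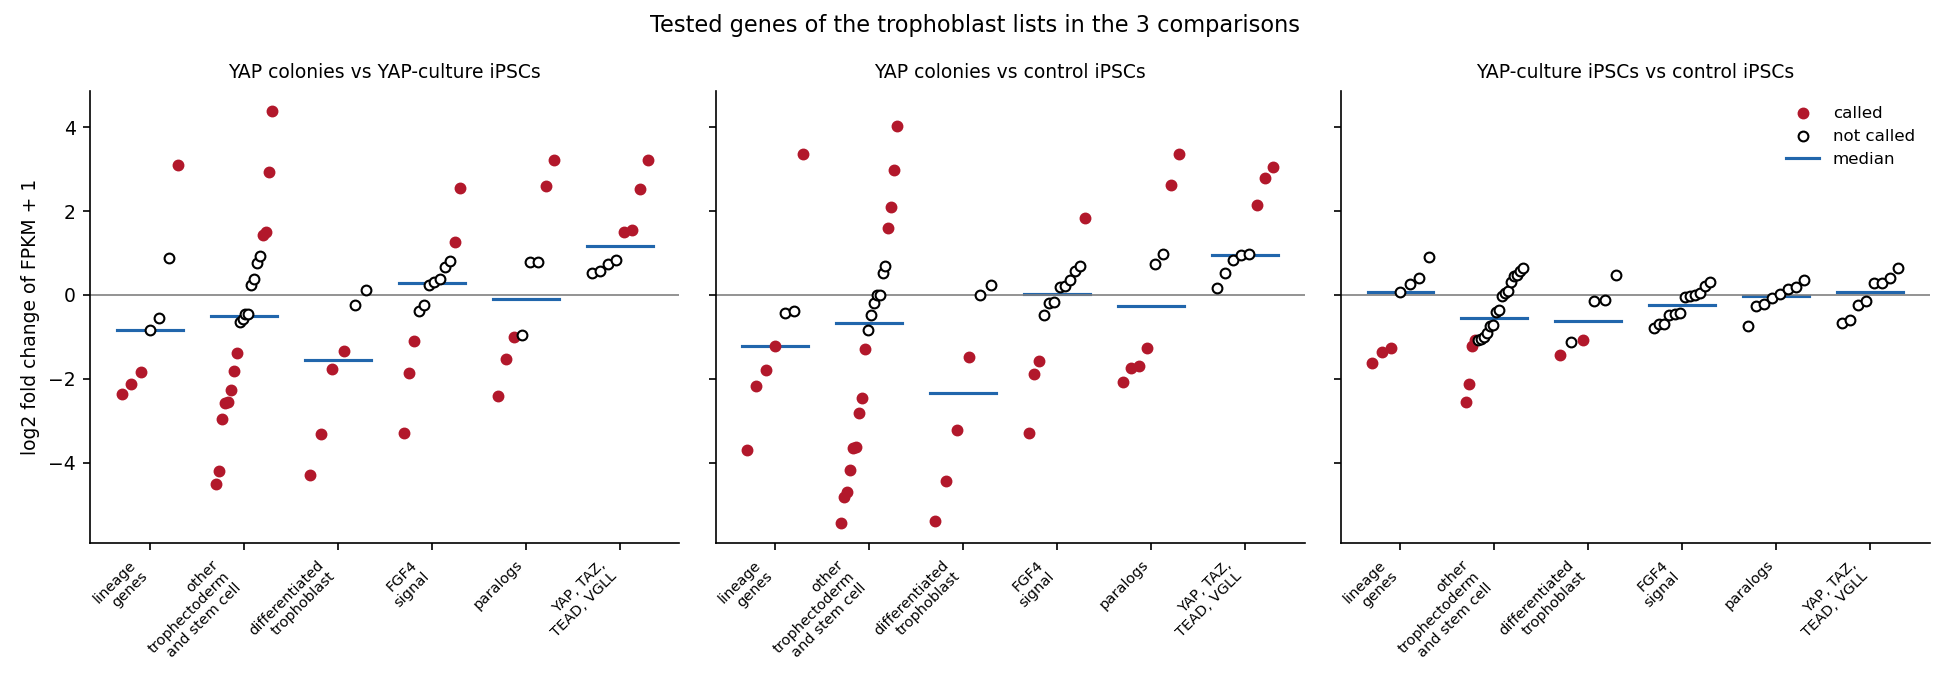
Log2 fold change of FPKM + 1 (vertical axis) of every tested gene of the lineage list and 5 related lists in the 3 comparisons, filled where called, with the median of each list as a line. In the colony comparisons the lists spread to both sides of 0, with 4 genes rising in the other trophectoderm list and no called gene of differentiated trophoblast above 0.

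Between the iPSC groups, 4 genes of the other trophectoderm list fell in YAP-culture iPSCs, the keratin gene Krt18, Bmp4, and the X-linked homeobox genes Rhox6 and Rhox9. None of the list rose, while 4 were higher and 10 lower at an unadjusted p under 0.05. The 4 that fell are 20.0% of the 20 tested, where 0.884% of all tested rows fell. Rhox9 was at 4.12, 2.53 and 5.16 FPKM in YAP-culture iPSCs and 34.0, 21.3 and 28.7 FPKM in control iPSCs, and Rhox6 at 5.93, 2.64 and 9.03 FPKM in YAP-culture iPSCs and 35.9, 17.2 and 29.8 FPKM in control iPSCs. Of the differentiated trophoblast list, 2 of 6 tested genes fell (33.3%), the lactate carrier gene Slc16a3 among them. These counts moved with single libraries: 9 genes of the other trophectoderm list fell without YAP-culture iPSC replicate 3, and 1 fell when any of YAP colony replicate 2 or 3, YAP-culture iPSC replicate 1, or control iPSC replicate 1 or 3 was left out. Of the differentiated list 3 fell without YAP-culture iPSC replicate 3 and at most 1 when any other library was left out. With the replicate block, and with the 2 iPSC groups fitted alone, no gene of the differentiated list was called, and of the other trophectoderm list 3 fell with the block and 1 with the groups alone. No FGF4 or paralog gene was called, although 2 of the FGF4 list fell without YAP-culture iPSC replicate 3, and 4 of that list were lower and none higher at an unadjusted p under 0.05.

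The genes whose levels ran most closely with Tfap2a over the 9 libraries were Sema6a, Gria3 and Itpkb, with Pearson r of log2(FPKM + 1) of 0.9995, 0.9994 and 0.9993. Sema6a was at 13.1, 11.6 and 13.5 FPKM in YAP colonies and at most 0.445 FPKM in YAP-culture iPSCs and 0.226 FPKM in control iPSCs. For Tfap2c they were Bmp4, Siglecf and Adap2, at 0.9928, 0.9926 and 0.992, and Bmp4 was at 0.813, 0.411 and 0.656 FPKM in YAP colonies, 7.82, 6.39 and 11.9 FPKM in YAP-culture iPSCs, and 22.4, 17.2 and 17.9 FPKM in control iPSCs. These values describe a step between colony types shared by many genes, since 1555 of 11503 genes compared had r over 0.95 with Tfap2a and 515 with Tfap2c.

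The annotation places other genes over some members. An antisense gene of Tfap2a, Plet1os opposite Plet1 and 3 genes overlapping Gata3 were listed at 0 in all libraries, and Gm33460 opposite Eomes was listed at 0 except for 0.167 FPKM in YAP colony replicate 2. The kit keeps strand, but whether the counting used it is not given in the sources used here.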

How the data were processed

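RNA-seq libraries of 9 samples in 3 groups were compared. Trizol extraction and a TruSeq stranded mRNA kit are stated per the labels' protocols. TopHat, Cufflinks and the mm10 build appear in the submitters' processing notes. Versions, settings and strand handling are not given in the sources used here. Values are FPKM as deposited by the authors, already divided by transcript length and library total. Positions are 1-based (the deposited start plus 1, which matched GENCODE M21 for 90.88% of matched rows).

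From these values, limma 3.58.1 (R 4.3.3) modelled log2(FPKM + 1) of rows that averaged 1 FPKM or more, with all 9 libraries and 3 group means in the same model, a trended prior and no block. Depth is limited by 6430000 to 19600000 fragments a library, estimated from FPKM steps in single-transcript genes. Fragment numbers use the longest annotated transcript and are approximate.

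The members and lists were chosen with earlier results of these data known. Named genes were all 10 members, 18 fixed genes, and the 2 called genes of each list with the largest change each way in YAP colonies against YAP-culture iPSCs. Other called genes, relatives and markers were named after their values were seen. Alternatives were pseudocounts of 0.1 and 5, quantile normalization, median-ratio scaling, no filter, a minimum of 5 FPKM, the compared groups alone, a replicate block, a constant variance prior and each library left out. Chosen after seeing the data were the removal of 2 iPSC libraries and rescaled protein-coding rows. Promoters are from RefSeq (GRCm38.p6). One gene that this rule names is not reported here.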

Additional observations from a re-analysis of the deposited data

How the results depend on the processing

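Over the alternatives run, 375 of the fold changes of single tested members kept their direction and side of the call, 24 lost the call, 4 gained it and 2 reversed. The reversed ones were uncalled, both between the iPSC groups: Eomes was -0.007997 without control iPSC replicate 1 (up to 0.132 with another library left out), and Gata2 was -0.118 without YAP-culture iPSC replicate 3 and control iPSC replicate 3 (up to 0.6166 with a single library left out). A pseudocount of 5, which shrinks low genes by construction, called 2108 rows for YAP colonies against YAP-culture iPSCs, 2259 against control iPSCs and 57 between the iPSC groups, with 1 lower member each in the last 2. A minimum mean of 5 FPKM, which tests fewer genes, called 2421, 2599 and 114 rows, and 0 higher and 1 lower member in each colony comparison, since Tfap2a, Eomes, Hand1 and Plet1 were then not tested. The iPSC groups fitted alone gave 36 rows and 1 lower member, and the removal of both replicate 3 iPSC libraries gave 1042 rows. The cause of these moves was not tested. Leaving out each library in turn gave 4072 to 4421, 4225 to 4421 and 52 to 1048 called rows. Members called lower between the iPSC groups then numbered 0 to 3, and members called higher against YAP-culture iPSCs 1 to 2.

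With the replicate number as a block, 4184, 4398 and 160 rows were called, and the members' counts were 1 higher and 3 lower, 1 and 4, and 0 and 3, as without it. Between the iPSC groups, the 2 calls of the differentiated trophoblast list were lost with the block. Same-numbered libraries correlated between -0.141 and 0.188 in their deviations from the group means, over 0.1 in 2 of 9 pairs, and in 2 of 9 a library correlated best with its own number. The numbers were therefore not taken as a pairing. Rescaling protein-coding rows to equal totals shifted the median log2 fold change of YAP colonies against control iPSCs to 0.09 (-0.07 before) and changed no count of called members. Depth limits Cdx2, Elf5 and Hand1, which rest on 0 to 1 fragments a colony library.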

Other observations

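The tested genes that flank the 10 members were looked at next, 20 in all. In YAP colonies 3 of them rose and 2 fell against YAP-culture iPSCs, and 3 rose and 3 fell against control iPSCs. Against the 15.8% and 14.5% of all tested rows called higher and lower in the first comparison, and 14.9% and 17% in the second, these counts are near the background and show nothing particular to the neighbours. Between the iPSC groups 1 fell. The values that follow are given as a description. Gcnt2, a glycosyltransferase gene 126 kb from Tfap2a, fell by 4.24 on the log2 scale against YAP-culture iPSCs where Tfap2a rose. Bmp7, a BMP ligand gene 309 kb from Tfap2c, fell by 1.12 in the same comparison, as Tfap2c did. Ehf, which lies 108 kb from Elf5, rose by 3.23, and Fam199x, 32.9 kb from Esx1 on the X chromosome, rose by 1.57. Celf2, an RNA-binding protein gene 2350 kb from Gata3, rose by 1.77.

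The promoter windows of the members were between 46.4% and 74.0% G and C, against a median of 52.4% over the table. The windows at the ends of that range were those of Eomes and Gata2.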
